A study of Arabidopsis thaliana with 4 samples.

Results

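The results concern 6 nuclear genes of photosynthesis in Arabidopsis thaliana leaves, taken as the probe sets that name 1 gene in the platform annotation with the symbol PSAE-1, PSAN, LHCB4.2, LHCB4.3, RCA or PRK. Each symbol matched 1 probe set, so 6 of the 22810 probe sets of the Affymetrix ATH1 array were described, and all 6 were among the 13648 tested. RNA came from rosette leaves of 3-week-old plants of the Col-0 accession, either wild type or KO-nudx19, and 2 arrays of each genotype were hybridised. NUDX19, which is missing from KO-nudx19 plants, is an NADPH-hydrolysing enzyme of the Nudix family. The allele and the number of independent lines are not stated by the labels. All plants were kept for 1 week on medium with 3% sucrose and then for 2 weeks on soil, with 16 h of light at 25 °C and 8 h of darkness at 22 °C and a light intensity of 100 µmol of photons per square metre per second. The arrays of each genotype are numbered 1 and 2 in the labels, which do not say whether they came from separate plants. The p-values therefore cover only the variation among these arrays, and this may be technical. No probe set was assigned to NUDX19, and the genotype labels were not checked against it here.

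Photosystem I uses light to pass electrons from plastocyanin to ferredoxin, from which NADPH is made, and the light-harvesting proteins around both photosystems collect the light. The Calvin cycle spends this NADPH and ATP on fixing carbon dioxide. PSAE-1 encodes a stromal subunit of photosystem I where ferredoxin docks, and PSAN encodes a lumenal subunit on the plastocyanin side. LHCB4.2 and LHCB4.3 encode copies of CP29, a minor antenna protein of photosystem II. RCA encodes Rubisco activase, which frees the carbon-fixing enzyme Rubisco of inhibitory sugar phosphates, and PRK encodes phosphoribulokinase, which makes the sugar that Rubisco carboxylates. All 6 proteins work in the chloroplast and are made from nuclear genes.

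The arrays had been scaled to a common mean, as the values show. The mean signal without the highest and lowest 2% of probe sets was 200 on each array. The bright end of the signals was not equal between arrays. The 99th percentile of signals was 3901 and 4403 on wild type replicates 1 and 2, and 4286 and 4904 on KO-nudx19 replicates 1 and 2. The array numbered 2 had the higher value in each genotype, and so had the KO-nudx19 array of each number. The hybridisation controls, transcripts added to the labelled sample, had geometric means of 1054 and 1140 on the KO-nudx19 arrays against 620 and 411 on those of wild type, which is 1.12 higher on the log2 scale. The poly(A) controls, added to the RNA, parted by number, with 116 (wild type) and 98.2 (KO-nudx19) on the arrays numbered 1 against 19.9 and 21.0 on the arrays numbered 2. The part of these differences in the values of the 6 genes was not tested. Signals of leaf tissue are a mixture, in which fewer cells of a type and less RNA per cell cannot be told apart. Of 17 loci on the lists of guard cell, phloem, epidermis, root and flower markers, 1 had a named probe set. This was FMA, a regulator of guard cell formation, with signals between 77.5 and 85.8 on the 4 arrays, so the makeup of the leaves was hardly covered by these lists.

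In the deposited values, PSAE-1, PSAN, LHCB4.2, RCA and PRK had higher signals on both KO-nudx19 arrays than on both wild-type arrays, by 1.26-fold to 1.50-fold on average, and LHCB4.3 overlapped between the genotypes. After quantile normalization, which gives every array the same set of signals, RCA and LHCB4.2 stood slightly below 0 and the other 3 of these genes close to 0. None of the 6 passed limma's test with Benjamini-Hochberg adjustment over all tested probe sets. Over all 13648 probe sets, 0 passed the adjusted p of 0.05 (0%), and 89 (0.652%) had an unadjusted p under 0.05, none of them one of the 6 genes. The 5 genes of the 6 whose arrays did not overlap between the genotypes stand beside 22.3% of all tested probe sets that did not overlap, and beside 10.5% that did so with higher signals in KO-nudx19. The members and the comparison were chosen with earlier results of these data known, so the count describes these arrays and is not a test.

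**Figure D1:**
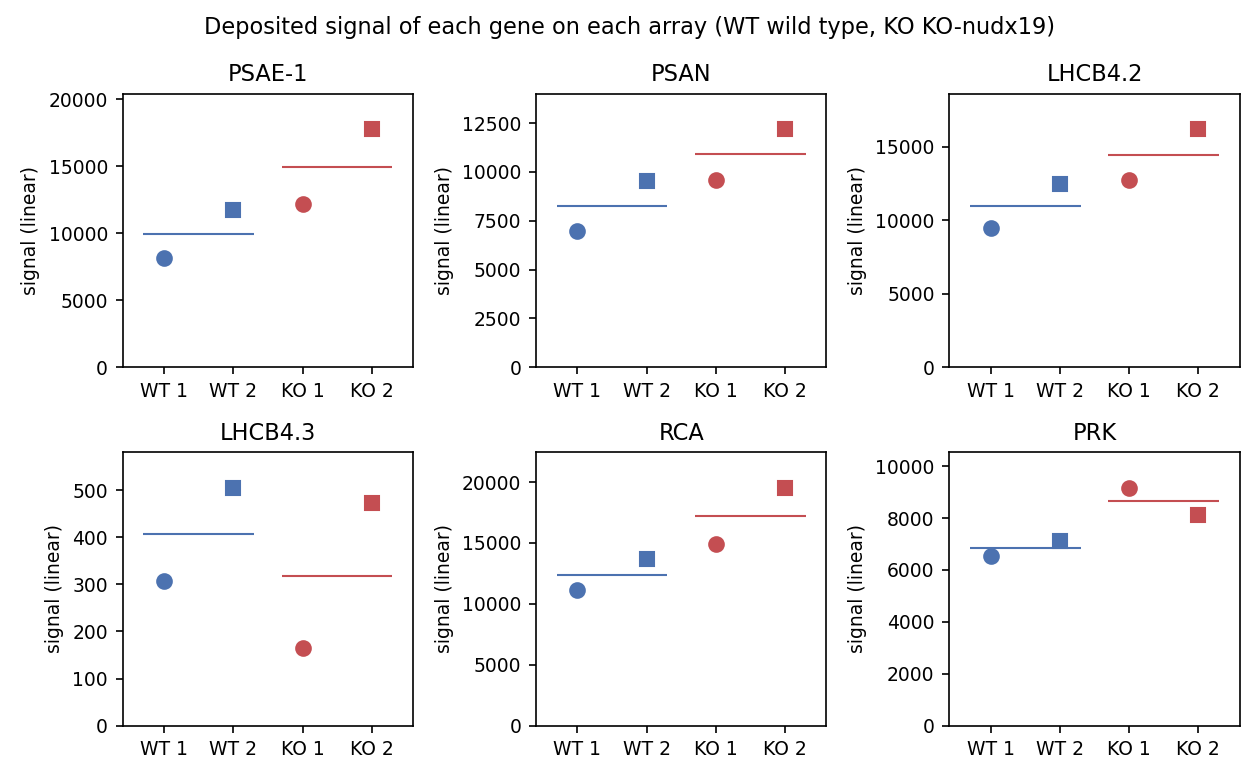
Deposited linear signal (y axis, from 0) of each of the 6 genes on each array, with wild type in blue and KO-nudx19 in red, circles for arrays numbered 1, squares for arrays numbered 2 and a line at the mean of each genotype. LHCB4.3 is high on both arrays numbered 2 (505 and 472), whereas PSAE-1, PSAN, LHCB4.2 and RCA are lowest on wild type replicate 1 and highest on KO-nudx19 replicate 2 before quantile normalization.

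The photosystem I gene PSAE-1 (AT4G28750) had signals of 8128 and 11740 on wild type replicates 1 and 2 and of 12157 and 17750 on KO-nudx19 replicates 1 and 2. The genotypes did not overlap, but KO-nudx19 replicate 1 lay only 1.04-fold above wild type replicate 2. Mean signals were 14954 ± 3955 for KO-nudx19 against 9934 ± 2554 for wild type (SD, n = 2 each). This was a log2 difference of 0.59 with a standard error of 0.32 and a 95% interval from −0.19 to 1.37. The interval runs from 0.876-fold to 2.58-fold and holds no change, and limma's adjusted p was 1.00. Of the 6 genes PSAE-1 had the largest genotype difference in the deposited values, and it was nearly equal within number 1 (0.58) and within number 2 (0.60). It was 0.11 after quantile normalization.

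The other photosystem I gene, PSAN (AT5G64040), had signals of 6951 and 9520 on the arrays of wild type (replicates 1 and 2, here and below) and 9597 and 12186 on those of KO-nudx19. The nearest arrays of the genotypes were 1.01-fold apart, so wild type replicate 2 and KO-nudx19 replicate 1 were almost equal. The log2 difference was 0.41 (SE 0.28, 95% interval −0.28 to 1.10), with 0.47 within number 1 and 0.36 within number 2. PSAN stood at 0.047 after quantile normalization.

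Rubisco activase (RCA, AT2G39730) gave 11113 and 13710 in wild type, and KO-nudx19 gave 14928 and 19541. As for both photosystem I genes, wild type replicate 1 was lowest and KO-nudx19 replicate 2 highest, with 1.09-fold between the nearest arrays of the genotypes. The log2 difference was 0.47 (SE 0.27, 95% interval −0.20 to 1.13), with 0.43 within number 1 and 0.51 within number 2, and it turned to −0.014 after quantile normalization.

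Phosphoribulokinase (PRK, AT1G32060) gave 6551 and 7123 in wild type, while KO-nudx19 gave 9168 and 8117. It had the widest gap between the genotypes of the 6 genes, 1.14-fold between the nearest arrays, and the smallest spread between arrays of a genotype on the log2 scale. Its highest value was on KO-nudx19 replicate 1, unlike that of the other bright genes. Mean signals were 8642 ± 743 for KO-nudx19 against 6837 ± 405 for wild type (SD, n = 2 each), and the log2 difference was 0.34 (SE 0.23, 95% interval −0.24 to 0.91). It was 0.48 within number 1 and 0.19 within number 2, and after quantile normalization it was 0.056.

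The median log2 difference of the 6 genes was 0.41, against −0.00029 over all tested probe sets, with 0.45 within number 1 and 0.37 within number 2. All 6 genes moved the same way for both numbers, 5 up and LHCB4.3 down. Over all tested probe sets, 24.3% were higher in KO-nudx19 for both numbers and 24.8% lower for both. Without wild type replicate 1 the median of the 6 genes was 0.24, and without KO-nudx19 replicate 2 it was 0.26. Both of these values also hold a part of the number difference, since the numbers are then not balanced between the genotypes.

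**Figure D2:**
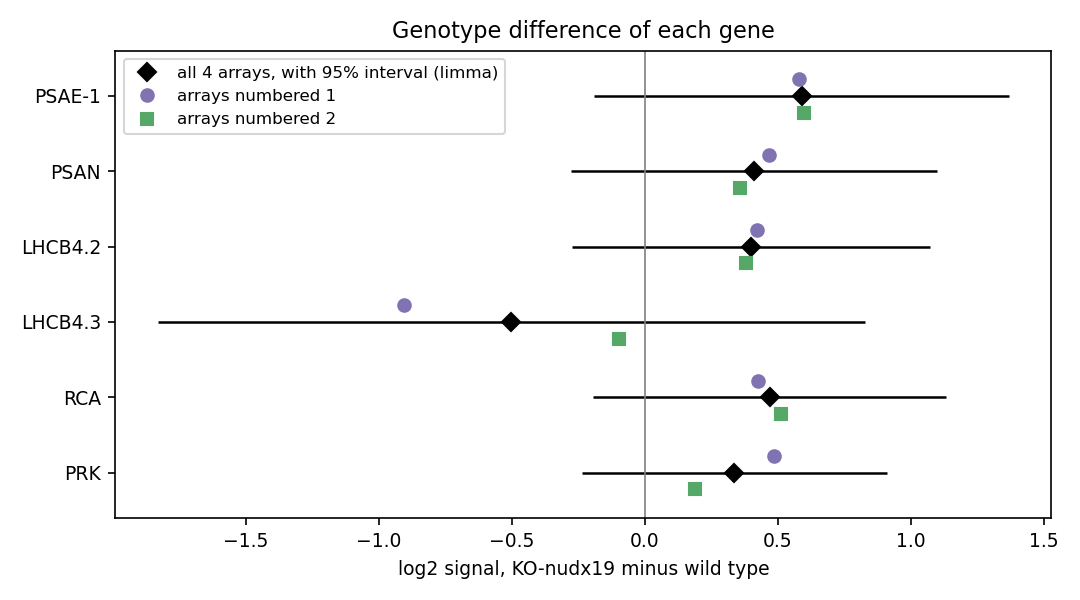
Log2 difference between KO-nudx19 and wild type (x axis) of each of the 6 genes in the deposited scaling, with diamonds for all 4 arrays, bars for limma's 95% interval, circles for the arrays numbered 1 and squares for those numbered 2. Every interval crosses 0 in this fit, which leaves out the replicate number. LHCB4.3 is the gene furthest apart between the numbers (−0.91 and −0.097). With the number in the fit, the intervals of PSAE-1, PSAN, LHCB4.2 and RCA lie above 0 and those of PRK and LHCB4.3 cross it. None of the 6 genes passed that fit after adjustment, and it is not drawn. RCA and LHCB4.2 fall below 0 after quantile normalization, which is not drawn here.

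The size of the difference depended on how the arrays were scaled. Centring each array on its median signal gave a median of 0.36 for the 6 genes, and 2 of the 6 then did not overlap between the genotypes. Scaling on the 99th percentile, an alternative added after seeing the data, gave 0.26 and moved the median of all tested probe sets to −0.15. Relative to the median of all tested probe sets, the 6 genes stood at 0.41 under the deposited scaling and under both of these, since each multiplies an array by 1 factor. Cyclic loess, which removes differences that change with brightness, gave 0.26. The genotypes did not overlap for 4 of the 6 genes with cyclic loess, and for 4 with scaling on the 99th percentile. Quantile normalization gave 0.017, with 0 of the 6 genes apart between the genotypes. The share of all tested probe sets that did not overlap was taken from the deposited values only. The counts under the other scalings therefore have no such share beside them. The genes reached the limma threshold under none of these scalings.

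**Figure D3:**
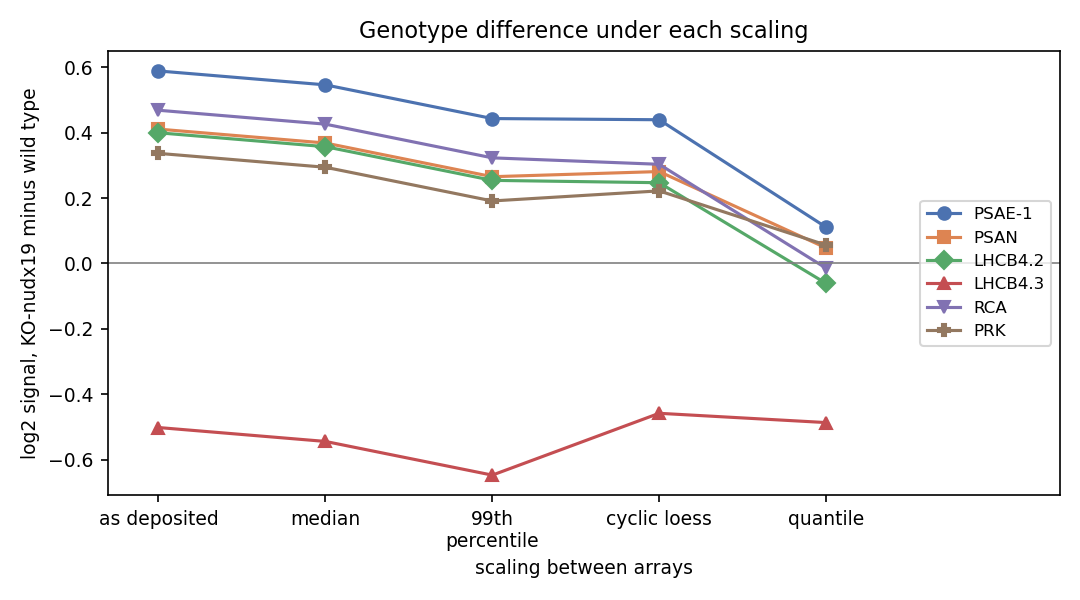
Log2 difference between KO-nudx19 and wild type (y axis) of each of the 6 genes under 5 ways of scaling the arrays (x axis). PSAE-1, PSAN, RCA, LHCB4.2 and PRK lie between 0.34 and 0.59 in the deposited scaling and between −0.061 and 0.11 after quantile normalization, whereas LHCB4.3 lies between −0.65 and −0.46 under all 5.

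The place of each gene in the order of signals on its own array does not depend on any scaling factor. Counted from the brightest of 22746 probe sets that are not controls, RCA ranked 16 and 13 on the wild-type arrays against 13 and 18 on those of KO-nudx19. LHCB4.2 ranked 29 and 23 against 26 and 35. For neither gene did the KO-nudx19 arrays lie apart from the wild-type arrays in rank. PSAE-1 ranked 41 and 30 in wild type, against 30 and 27 for KO-nudx19, with wild type replicate 1 alone further from the top. PSAN stood at rank 65 and 54 against 52 and 60, and PRK at 78 and 98 against 56 and 110. PRK was closer to the top on both arrays numbered 1 than on those numbered 2. LHCB4.3 ranked 4396 and 2716 in wild type, against 7245 and 2793 for KO-nudx19. Its rank moved most, and by replicate number.

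The genotype differences of LHCB4.2 and LHCB4.3 had opposite signs in the deposited values, and neither passed the test. LHCB4.2 (AT3G08940) gave 9511 and 12462 in wild type, and KO-nudx19 gave 12726 and 16206. The genotypes did not overlap, with 1.02-fold between the nearest arrays, and the log2 difference was 0.40 (SE 0.27, 95% interval −0.27 to 1.07), turning to −0.061 after quantile normalization. LHCB4.3 (AT2G40100), whose product has a shortened C-terminal end and whose transcript is known to rise in high light, gave 307 and 505 in wild type, while KO-nudx19 gave 164 and 472. Here the genotypes overlapped, and the arrays numbered 2 were the higher ones in each genotype. Mean signals were 318 ± 218 for KO-nudx19 against 406 ± 140 for wild type (SD, n = 2 each), and the log2 difference was −0.50 (SE 0.54, 95% interval −1.83 to 0.83). The difference came mostly from the arrays numbered 1: it was −0.91 within number 1 and −0.097 within number 2. Without KO-nudx19 replicate 1 it was 0.26. That value sets KO-nudx19 replicate 2 against wild-type arrays of both numbers, so it also holds a part of the number difference.

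Within an array a scaling factor cancels when the change of one copy is set against that of the other. The change of LHCB4.2 between the genotypes exceeded that of LHCB4.3 by 0.90 on the log2 scale, which is 1.87-fold. The log2 ratio of the copies had an SD of 0.23 for wild type and 0.83 for KO-nudx19 (n = 2 arrays each). The exact two-sided permutation test over the 4 arrays gave p = 0.333, the smallest p that 2 against 2 arrays can give, so the design cannot reach 0.05. The contrast was 1.33 within number 1 and 0.48 within number 2. Leaving out KO-nudx19 replicate 1 gave 0.31 and leaving out KO-nudx19 replicate 2 gave 1.49. Each of these sets 1 KO-nudx19 array against wild-type arrays of both numbers, and so also holds a part of the number difference. Quantile normalization, which is not a single factor for an array, gave 0.43, with 0.97 within number 1 and −0.12 within number 2.

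Between the numbers the contrast ran the other way. LHCB4.2 changed less than LHCB4.3 from the arrays numbered 1 to those numbered 2, by −0.75 on the log2 scale, with −0.33 within wild type and −1.18 within KO-nudx19 (exact two-sided permutation p = 0.667). The third CP29 gene, LHCB4.1 (AT5G01530), which is not one of the 6 genes and was added to the contrast after its values were seen, gave 11592 and 13518 in wild type, and KO-nudx19 gave 13481 and 16566. Its genotypes overlapped, because wild type replicate 2 lay just above KO-nudx19 replicate 1. The change of LHCB4.2 between the genotypes exceeded that of LHCB4.1 by 0.14, with an SD of their log2 ratio of 0.12 for wild type and 0.036 for KO-nudx19 (exact two-sided permutation p = 0.333). The change of LHCB4.1 exceeded that of LHCB4.3 by 0.76 (exact p = 0.667). Whether probes of one copy also detect another was not tested.

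**Figure D4:**
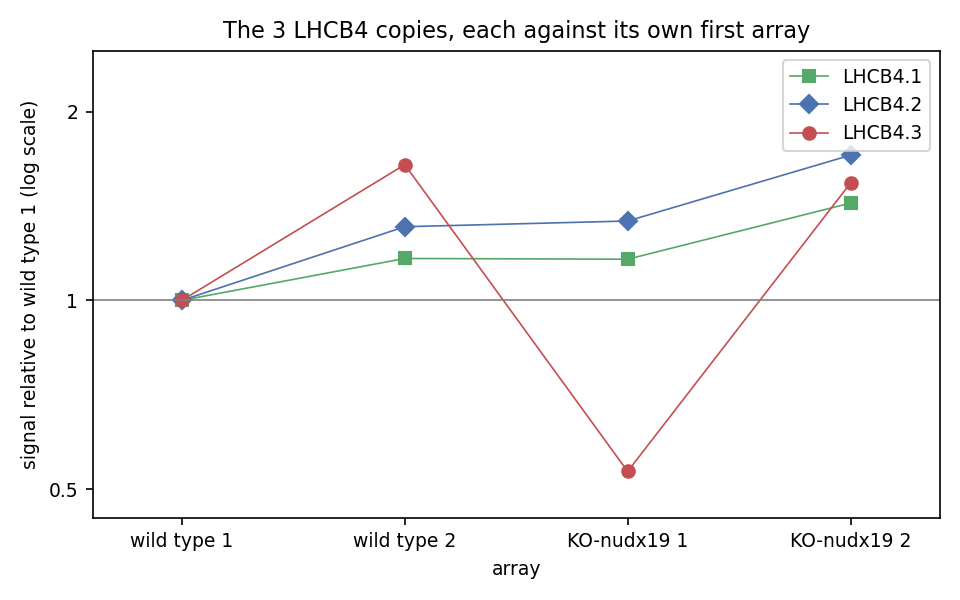
Signal of LHCB4.1, LHCB4.2 and LHCB4.3 on each array (x axis), each divided by its own signal on wild type replicate 1 (y axis, log scale). LHCB4.3 is at 0.534 on KO-nudx19 replicate 1 and at 1.65 and 1.54 on the arrays numbered 2, whereas LHCB4.2 is at 1.31, 1.34 and 1.70 on the other 3 arrays in the deposited scaling.

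Between the arrays numbered 2 and 1, with genotype in the fit, LHCB4.3 and PSAE-1 were higher on the arrays numbered 2 and passed limma's test. Of all tested probe sets 11.2% passed this comparison, 4.93% passed as higher on the arrays numbered 2, 54.4% did not overlap between the numbers, and 23.6% did so with higher signals on the arrays numbered 2. LHCB4.3 had a log2 difference of 1.12 (SE 0.25, 95% interval 0.60 to 1.64, adjusted p = 0.00497 in limma), which is 2.18-fold. The difference was 0.72 within wild type and 1.53 within KO-nudx19, and LHCB4.3 was the only one of the 6 genes whose arrays did not overlap between the numbers, with 1.54-fold between the nearest ones. The call was lost only without a filter on dim probe sets (adjusted p = 0.452), among the alternatives that gave a test.

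PSAE-1 had a number difference of 0.54 (SE 0.16, adjusted p = 0.0283 in limma), with 0.53 within wild type and 0.55 within KO-nudx19. Its arrays overlapped between the numbers, since wild type replicate 2 lay below KO-nudx19 replicate 1. The call was lost after quantile normalization (0.11, adjusted p = 0.759), cyclic loess (0.21, adjusted p = 0.437) and scaling on the 99th percentile (0.35, adjusted p = 0.121), without a filter (adjusted p = 0.542) and with eBayes without a trend (adjusted p = 0.209). The genotype fit above left the number out, so its standard errors and p-values are not like those given here. With both in the fit, the genotype difference of PSAE-1 (0.59) also had an SE of 0.16. Its unadjusted p in limma was then 0.00115, against 0.00244 for the number difference. After adjustment the genotype difference did not pass (adjusted p = 0.290 in limma).

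The number differences of PSAN, LHCB4.2 and RCA were 0.40, 0.37 and 0.35 in the deposited scaling, with limma adjusted p-values of 0.124, 0.137 and 0.159, and that of PRK was −0.027. After quantile normalization they were 0.047 for PSAN, −0.018 for LHCB4.2 and −0.014 for RCA, while that of PRK moved away from 0, to −0.33 (−0.30 with cyclic loess). For PSAE-1, PSAN, LHCB4.2 and RCA the number difference was thus of about the size of the genotype difference. Their order over the arrays was the same, with wild type replicate 1 lowest and KO-nudx19 replicate 2 highest. This order was shared by 10.3% of all tested probe sets and by 7 of the 14 other photosynthesis genes described below. The ratio of the 3′ to the 5′ actin control, which rises as RNA degrades, was also lowest on wild type replicate 1 and highest on KO-nudx19 replicate 2. It was 4.27 and 5.17 on the arrays numbered 2 against 2.30 and 2.92 on the arrays numbered 1 (wild type first), and so higher in KO-nudx19 within each number, by 0.31 on the log2 scale on average. For the GAPDH and ubiquitin controls this ratio was likewise highest on KO-nudx19 replicate 2, at 1.38 and 1.95, but their lowest arrays differed. GAPDH was lowest on KO-nudx19 replicate 1 (0.986, with 1.01 on wild type replicate 1). Ubiquitin was lowest on wild type replicate 2, at 1.44. It stood at 1.53 on wild type replicate 1 against 1.48 on KO-nudx19 replicate 1. Within number 1 the GAPDH and ubiquitin ratios were thus lower in KO-nudx19, unlike that of actin. The part of these ratios in the number and genotype differences was not tested.

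Relative to wild type replicate 1, PSAE-1 stood at 1.44, 1.50 and 2.18 on wild type replicate 2, KO-nudx19 replicate 1 and KO-nudx19 replicate 2. PSAN stood at 1.37, 1.38 and 1.75, LHCB4.2 at 1.31, 1.34 and 1.70, and RCA at 1.23, 1.34 and 1.76. These 4 genes kept the same order of arrays. On KO-nudx19 replicate 2 PSAE-1 stood highest, while PSAN, LHCB4.2 and RCA lay close together. On wild type replicate 2 the 4 genes ran from 1.23 to 1.44. PRK stood at 1.09, 1.40 and 1.24. Its log2 difference was 0.34 between the genotypes and −0.027 between the numbers in these values, but 0.056 and −0.33 after quantile normalization and 0.22 and −0.30 after cyclic loess.

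The likeness of the profiles was measured as the root mean square distance between log2 signals over the 4 arrays, each gene centred on its own mean. LHCB4.2 and PSAN were closest, at 0.023, and LHCB4.2 and RCA lay at 0.048. PSAE-1 lay between 0.11 and 0.13 from PSAN, LHCB4.2 and RCA. PRK lay between 0.21 and 0.32 from these 4 genes and LHCB4.3 between 0.62 and 0.76 from all others. Among 7309 other named genes, the gene nearest to LHCB4.2 was PSBW, which encodes a small subunit of photosystem II, at 0.015, followed by AT1G78040 at 0.018. AT3G11690 (0.0080) and AT3G60070 (0.013) were nearest to PSAN, and AT1G17490 (0.014) and APL4, a subunit of the starch synthesis enzyme ADP-glucose pyrophosphorylase (0.030), to RCA. The nearest to PSAE-1 were AT1G68360 (0.037) and AT1G09310 (0.041), and to PRK they were AT5G14710 (0.028) and AT3G55520 (0.029). LHCB4.3 had no neighbour as close, with AT5G52390 at 0.046 and the beta-glucosidase gene BGLU40 at 0.070. The measure rests on 4 arrays, and several of these neighbours were dim, such as AT1G68360 with signals from 27.0 to 62.0.

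Other nuclear genes of photosynthesis lay on both sides of 0. The lists of photosystem I and II, antenna, electron transport, Calvin cycle, chlorophyll synthesis and regulator genes held 103 loci besides the 6 genes, of which 14 had a named probe set, all tested. Of these, 8 had log2 differences above 0 and 6 below, with a median of 0.064 and a range from −0.34 to 0.60 in the deposited scaling. None passed limma's test, and none had an unadjusted p under 0.05. The genotypes did not overlap for 4 of the 14, with 2 higher and 2 lower in KO-nudx19. Of all tested probe sets 22.3% did not overlap, and 10.5% did so with higher signals in KO-nudx19. None of the regulator genes had a named probe set.

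Among the photosystem II genes, PSB27, whose product takes part in assembling and repairing the complex, gave 4350 and 5761 in wild type, while KO-nudx19 gave 7153 and 8046. Its log2 difference was 0.60 (SE 0.26). It was the one of the 3 tested photosystem II genes that did not overlap. PSBW had 6132 and 8264 against 8255 and 10588, and PSBY, another small subunit, had 8760 and 12618 against 11098 and 13034. Both overlapped between the genotypes, with log2 differences of 0.39 for PSBW and 0.19 for PSBY in the deposited scaling. All 3 photosystem II genes thus stood above 0. In electron transport ATPC1, the gamma subunit of the chloroplast ATP synthase, had 8047 and 11205 against 9683 and 11782. Its log2 difference was 0.17, and that of ATPC2, of the same list, was 0.038. PGRL1B, of cyclic electron flow around photosystem I, gave 377 and 455 in wild type, while KO-nudx19 gave 355 and 300. It was lower on both KO-nudx19 arrays, with a log2 difference of −0.34.

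In the Calvin cycle, SBPASE, which encodes sedoheptulose bisphosphatase, gave 4277 and 5100 in wild type, while KO-nudx19 gave 4118 and 5292. Its log2 difference was −0.00075. Its arrays overlapped between the genotypes but not between the numbers, as 54.4% of all tested probe sets did not. Its number difference of 0.31 did not pass (adjusted p = 0.308 in limma). The remaining tested locus of this list, AT1G56190, had 1597 and 1439 against 1476 and 1296. The 2 members of the cycle among the 6 genes, RCA and PRK, therefore stood at 0.47 and 0.34 beside 2 further genes at or below 0 in the deposited scaling, and the difference between them was not tested.

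In chlorophyll synthesis 2 of 5 tested genes were above 0 and 3 below. CHLI2, a subunit of magnesium chelatase, gave 856 and 905 in wild type, while KO-nudx19 gave 855 and 591. Its genotypes did not overlap, by a gap that rested on nearly equal values of both arrays numbered 1. HEMA2, an enzyme of early tetrapyrrole synthesis, gave 61.1 and 63.5 in wild type, while KO-nudx19 gave 68.3 and 68.7, and it was higher on both KO-nudx19 arrays with a log2 difference of 0.14. CHLM, a methyltransferase of the pathway, had 4704 and 4902 against 5100 and 3971, and PORB, a protochlorophyllide reductase, had 5533 and 4850 against 5923 and 5132. GSA1, another enzyme of that early part of the pathway, was the one of the 14 genes that passed the comparison of the numbers, with 1045 and 551 in wild type, 811 and 509 for KO-nudx19 and a number difference of −0.80 (adjusted p = 0.0238 in limma).

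**Figure D5:**
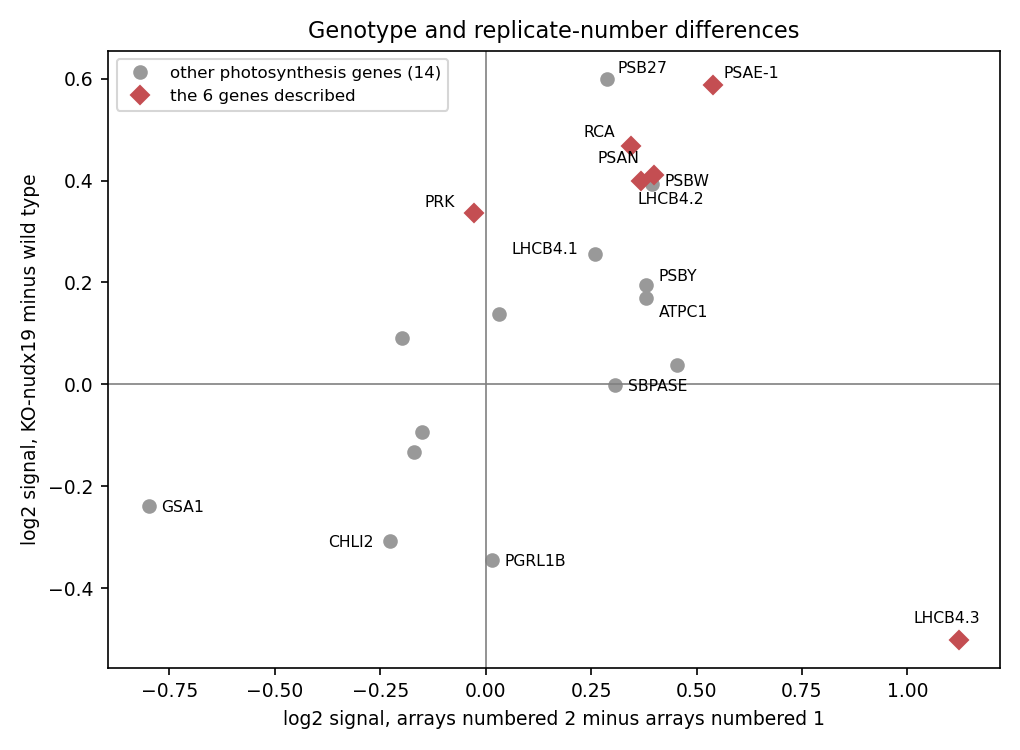
Log2 difference between the genotypes (y axis) against that between the arrays numbered 2 and 1 (x axis) for the 6 genes (red diamonds) and 14 other photosynthesis genes (grey circles), in the deposited scaling. PSAE-1, PSAN, LHCB4.2 and RCA lie at 0.35 to 0.54 on the x axis and 0.40 to 0.59 on the y axis, PRK lies near 0 on the x axis, and LHCB4.3 lies at 1.12 and −0.50. Quantile normalization brings RCA and LHCB4.2 below 0 on both axes.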

How the data were processed

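The authors deposited 1 linear intensity for each probe set on each array, made with GCOS, the array maker's software, per the submitters' processing notes. No source used here gives its version, background correction, probe summary or scaling target. The number of arrays limits the precision. Groups came from the sample titles and columns from the sample identifiers.

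Signals under 8.92, the 20th percentile over all arrays, were raised to that floor before taking log2. The 64 control probe sets and those with a mean signal under the 40th percentile (38.2) were left out. Differences were tested with limma 3.58.1 in R 4.3.3 (lmFit, eBayes with a trend, Benjamini-Hochberg over all tested probe sets, threshold 0.05), without the replicate number for the genotypes and with genotype and number for the numbers. The code was tested on simulated arrays. Of 22810 probe sets 13513 named 1 gene and 503 several, and 8730 are unnamed here, controls not counted. Of the named ones 13436 were matched to RefSeq (TAIR10.1). No coordinates or sequences are given, since the values name no build.

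The 6 genes, the lists and the comparisons were chosen with earlier results of these data known. All 6 genes were named. Of each list up to 5 genes could be named, first those passing, then non-overlapping ones with the largest difference, then the brightest, and for each of the 6 genes the 2 genes of most similar profile. Where a gene had several probe sets the brightest was used. Alternatives were other scalings, floors, filters and variance models, the replicate block, 1 probe set per gene and leaving out each array. Figures were drawn with matplotlib 3.10.9.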

Additional observations from a re-analysis of the deposited data

How the results depend on the processing

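The replicate numbers share only a number in the labels. The deviations of arrays with the same number from their genotype means had a correlation of 0.553 across probe sets, but there are only 2 numbers. With the replicate block 2 probe sets passed between the genotypes, none of them one of the 6 genes, of which PSAE-1 came nearest (block adjusted p = 0.290 in limma) and 4 had an unadjusted p under 0.05, as had 738 of all 13648 probe sets (5.41%), and with the block and quantile normalization 93 passed. The other planned settings with all 4 arrays gave 0, and leaving out single arrays gave 0 to 10, the 10 without wild type replicate 1. None of the 6 genes passed between the genotypes under any setting run. The count of the 6 genes apart between the genotypes was 0 after quantile normalization and 2 after centring on the median, against 5. It was 4 with cyclic loess and 4 with scaling on the 99th percentile. With the block and quantile normalization 2 of 6 moved the same way for both numbers, and the median of the 6 was 0.11 within number 1 and −0.080 within number 2. The median was 0.017 with quantile normalization alone and 0.24 to 0.61 leaving out single arrays. The LHCB4 contrast between the genotypes was 0.31 to 1.49 leaving out single arrays, and it turned to −0.12 within number 2 with the block and quantile normalization.

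Quantile normalization, with or without the block, turned LHCB4.2 to −0.061 and RCA to −0.014 between the genotypes. Between the numbers it turned LHCB4.2 to −0.018 and RCA to −0.014, while cyclic loess turned RCA to −0.0042 and centring on the median turned PRK to 0.040. Leaving out single arrays, the number difference of PRK ran from −0.18 to 0.12 (0.12 without either KO-nudx19 array) and the genotype difference of LHCB4.3 from −1.27 to 0.26 (0.26 without KO-nudx19 replicate 1). Between the numbers 1535 probe sets passed, against 1012 with a filter at the 60th percentile, where fewer probe sets were tested, 2491 with scaling on the 99th percentile, and 0 without a filter, where 2705 had an unadjusted p under 0.05. With 1 array left out the comparison of the numbers had no residual degrees of freedom and gave values with no test. The numbers were then not balanced between the genotypes, so genotype values with 1 array left out also hold a part of the number difference. The causes were not tested where none is named. A median 95% interval of ± 0.76 on the log2 scale limited what the genotype comparison could detect.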
